A study of Mus musculus with 56 samples.

Results

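Cytosolic ribosomal protein genes code for the structural proteins of the cell's main ribosomes. They were measured here in livers of mice given antisense drugs that differ in liver toxicity. The set was chosen by gene name: every array probe set (the group of oligonucleotides that reads 1 transcript) carrying exactly one gene symbol made of Rpl or Rps and a number, or Rplp0, Rplp1, Rplp2 or Rpsa, without pseudogenes and S6 kinases. This gave 100 probe sets of 46 genes, out of 45101 probe sets and 18194 genes with a probe set of their own. Of the 46 genes, 20 code for large subunit proteins, 20 for small subunit proteins and 2 for the P-stalk, and 4 are paralogs (Rpl3l, Rpl39l, Rps4l and Rps27l). Genes whose probe sets carry several symbols, among them Rpl5, Rpl13, Rpl17, Rpl32 and Rps13, fall outside the rule.

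The 56 livers came from male CD-1 mice, 6 to 8 weeks old when dosing began. The mice received a locked nucleic acid (LNA) gapmer, a short antisense oligonucleotide that directs RNase H to RNA, or the vehicle, phosphate-buffered saline (DPBS), under the skin. The gapmers were NTS-1, called non-toxic in the labels, TS-2, called toxic, and HTS-3, called severely toxic, each at 25 mg/kg. After 1 dose, livers were taken at 8, 16 and 72 h from 3, 4 and 3 NTS-1 mice, 4, 3 and 4 TS-2 mice and 3, 3 and 3 vehicle mice, and at 8 and 16 h from 3 and 4 HTS-3 mice. After doses on days 1, 4, 8 and 11, livers were taken on day 14 (2 weeks) from 4 NTS-1 mice, 5 TS-2 mice and 10 vehicle mice. For the single-dose study, per the labels' protocols, 10 mice were dosed per group and time, HTS-3 mice did not reach 72 h, and the arrays came from livers ranked highest for mild hepatic hypertrophy, so these groups do not stand for all dosed mice. The title of 1 HTS-3 mouse (8 h mouse 3) places it at 8 h and its description at 16 h; it was kept at 8 h, and no count of members past the test changed with it placed at 16 h. Of 8 hepatocyte markers 7 were measured, with a mean log2 intensity of 14.1 to 15.3 on every array. The share of probe sets at 32 or brighter was 32.1% to 33.3% per single-dose array and 54.3% to 57.5% per 2-week array, so the sets were kept apart.

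Each cytosolic ribosome is built from a small subunit, which reads the mRNA, and a large subunit, which joins amino acids. The genes of its proteins are short and among the most abundantly transcribed of any liver cell. Many of their transcripts begin with a run of pyrimidines, the 5′ terminal oligopyrimidine (TOP) motif, through which growth signals of the mTOR pathway control their translation and storage. Ribosomal protein transcripts were therefore examined as a short, abundant contrast to long genes, each gapmer against the vehicle mice of the same time. In the annotation the 43 members tested at 2 weeks spanned a median of 3.35 kb, from 0.941 kb for Rps4l to 9.65 kb for Rpl22, against 21.4 kb over all genes tested.

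The promoters of the 7 members that were lower after both gapmers at 2 weeks, and of the 2 that were higher after TS-2, are shown. These genes were picked by the test on these same data. The 80 bases run from 60 bases before the first-listed RefSeq start to 20 bases from it, in build GRCm38.p6. Capitals mark CGGAAG on either strand (the core of an ETS factor motif) and runs of a C followed by at least 7 further C or T on the gene's strand, and these can touch or overlap, as in Rps18.
Rpl11 (chr4:136053374-136053453, minus strand): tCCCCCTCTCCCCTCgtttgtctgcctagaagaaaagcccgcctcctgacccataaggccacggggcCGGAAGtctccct
Rpl19 (chr11:98026650-98026729, plus strand): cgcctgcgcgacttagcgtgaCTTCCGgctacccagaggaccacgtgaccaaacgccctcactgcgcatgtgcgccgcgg
Rpl41 (chr10:128549149-128549228, minus strand): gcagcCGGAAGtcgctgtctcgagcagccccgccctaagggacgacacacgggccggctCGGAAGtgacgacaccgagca
Rps15 (chr10:80292371-80292450, plus strand): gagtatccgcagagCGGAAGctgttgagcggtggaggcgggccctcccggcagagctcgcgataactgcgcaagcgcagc
Rps18 (chr17:33955646-33955725, minus strand): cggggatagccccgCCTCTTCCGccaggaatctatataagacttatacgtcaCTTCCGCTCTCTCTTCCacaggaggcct
Rps24 (chr14:24490618-24490697, plus strand): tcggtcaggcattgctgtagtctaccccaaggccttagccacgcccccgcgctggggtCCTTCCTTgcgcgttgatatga
Rps3 (chr7:99483690-99483769, minus strand): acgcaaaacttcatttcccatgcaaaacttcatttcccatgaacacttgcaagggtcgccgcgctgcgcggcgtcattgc
Rpl4 (chr9:64173327-64173406, plus strand): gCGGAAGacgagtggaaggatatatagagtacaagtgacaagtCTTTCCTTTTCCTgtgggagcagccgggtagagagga
Rps6 (chr4:86857348-86857427, minus strand): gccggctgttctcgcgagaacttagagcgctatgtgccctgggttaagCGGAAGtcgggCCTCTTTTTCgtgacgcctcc

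Of the 46 members, 40 matched an entry of that promoter table. CGGAAG on either strand was present in the 300-base promoter of 29 of these 40 genes (72.5%), against 17.2% of 27025 promoters of the same length. A run of C and at least 7 further pyrimidines on the gene's strand lay within the 60 bases around the start in 21 of 40 members (52.5%), against 18% of all promoters, and on the other strand in 4 members (10%), against 20.3%. Among the 7 genes that were lower after both gapmers, 6 held CGGAAG in the 300 bases and 3 held the run near the start, so both kinds of promoter were among them. The run marked above in Rpl11 begins at -59 from the start and lies outside the 60 bases counted. Those 60 bases reach past the end of the printed ones, so a counted run need not be marked. The motif counts are matches of letters in a window and mark neither a bound site nor a cause.

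The members were bright and varied little between mice. The values are RMA intensities (background-corrected, normalized probe brightness, linear scale), and a gene was read from its probe set with the highest mean. Tests were limited to genes at 32 or brighter on 3 or more arrays of a set, which left 42 members in the single-dose set and 43 at 2 weeks. Rpl3l, Rpl39l and Rps16 did not reach it in either set and Rpl12 did not in the single-dose set, and no value is given for them. The mean intensity was 1000 or more for 35 members in each set. Rpl14, Rpl27a, Rpl39, Rps6, Rps25, Rps27 and Rps4l were dimmer than that in both sets, which reflects the probe set as well as the transcript. The within-group standard deviation (SD) had a median of 0.158 over members on the log2 scale in the single-dose set, against 0.298 over all 9134 genes tested, and of 0.124 at 2 weeks, against 0.216 over 13812 genes. Among genes with a mean intensity of 1000 or more, the medians were closer. They were 0.147 for members and 0.244 for all such genes in the single-dose set, and 0.114 and 0.201 at 2 weeks.

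The members also moved together between mice of 1 group. The correlation of their within-group deviations over the 37 single-dose arrays had a median of 0.76 between pairs of members and 0.04 between pairs of other genes; over the 19 arrays at 2 weeks it was 0.46 and 0.00. These correlations are descriptions, and the genes of a pair share the array, its labelling and its normalization. One sign of RNA or labelling quality moved with them. The 3′ to 5′ signal ratio of Actb is a control on the array that rises as RNA or labelling falls short of the 5′ end. Its values are given on the log2 scale. In 8 of the 11 single-dose groups, and in 0 of the 3 groups at 2 weeks, the mouse with the lowest ratio also had the lowest ribosomal protein level of its group. Within groups the ratio correlated with the members' median level in both sets, at a Pearson r of 0.68 after 1 dose and 0.61 at 2 weeks. Its part in the results was not tested, and fits that hold it as a covariate are given where they move a count.

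**Figure D1:**
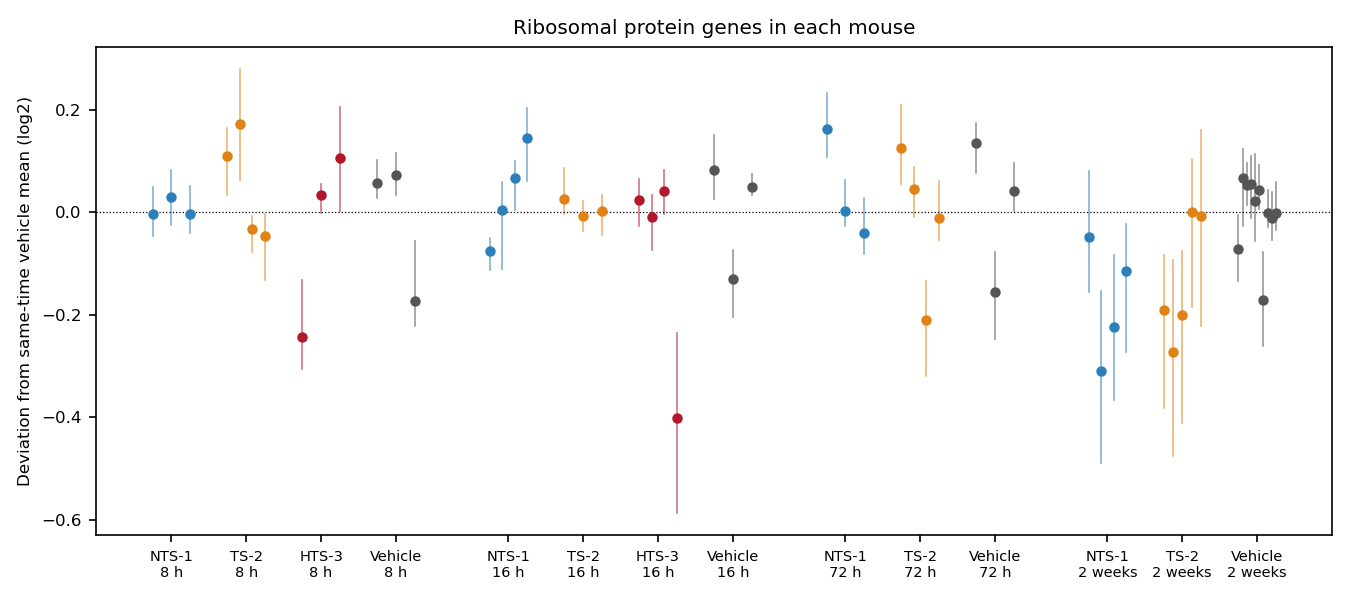
Deviation of the ribosomal protein genes from the mean of the vehicle mice of the same time (vertical axis, log2) for each of 56 mice; points are medians over the members tested, bars run between quartiles, and groups stand by time with vehicle at the right. HTS-3 16 h mouse 4 lies at -0.40 and the other 3 HTS-3 16 h mice at -0.01 to 0.04, and at 2 weeks the mice lie at -0.31 to -0.05 (NTS-1), -0.27 to 0.00 (TS-2) and -0.17 to 0.07 (vehicle).

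After 1 dose, no ribosomal protein gene passed the test for any gapmer. Differences were tested with limma on log2 values over all genes, with Benjamini-Hochberg adjustment and a threshold of 0.05, and all gapmers at a time share its vehicle mice. The count was 0 of 42 members in each of the 8 comparisons. Of all genes tested, 0.876% passed for NTS-1 at 8 h, 0.263% at 16 h and 0% at 72 h. The share was 0% for TS-2 at 8 h, 0.0109% at 16 h and 0.241% at 72 h, and 0.887% for HTS-3 at 8 h and 16.9% at 16 h. At 5 of these comparisons under 1% of genes passed and at 2 none, so a count of 0 members differs little from the background there; only for HTS-3 at 16 h were many other genes called. At an unadjusted p under 0.05, 2 members passed for TS-2 at 72 h, 1 for HTS-3 at 8 h, 1 for HTS-3 at 16 h and 0 in the other 5 comparisons. The member behind the HTS-3 8 h count was Rpl4, at -0.19 ± 0.09 SE, with all 3 HTS-3 mice below all 3 vehicle mice (limma adjusted p = 0.407).

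The middle of the members stayed close to vehicle. Their median log2 change was 0.02, 0.03 and 0.05 for NTS-1 at 8, 16 and 72 h, where all genes tested had medians of 0.00, -0.01 and -0.02. For TS-2 it was 0.05, 0.01 and -0.02, against 0.03, 0.03 and 0.02 over all genes. For HTS-3 it was -0.03 at 8 h and -0.09 at 16 h, against 0.01 and 0.07. The median half-width of a member's 95% interval was 0.26 to 0.28 on the log2 scale, and in each comparison the intervals of 38 to 40 of the 42 members lay within a change of 1 in either direction.

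HTS-3 at 16 h was the comparison with vehicle that had the most calls after 1 dose. Of all genes tested, 8.81% fell and 8.05% rose. Of 1002 tested genes that span 100 kb or more, 359 fell and 8 rose, with a median of -0.40. Of the 42 ribosomal protein genes, 37 (88.1%) had values below 0, against 42.1% of all genes, but their median was -0.09 and none passed. HTS-3 16 h mouse 4 carried that median. Its members lay at -0.40, against 0.02, -0.01 and 0.04 in mice 1 to 3. Its log2 Actb ratio of 1.15 was the lowest in the study, against 1.49 to 1.77 in mice 1 to 3. Without mouse 4 the members' median was 0.02 and still 0 passed. HTS-3 8 h mouse 1 was the low mouse of the earlier group, at -0.24 with a log2 Actb ratio of 1.35. The median at 8 h was 0.06 without that mouse. At 16 h, 4 of 8 macrophage markers tested and 2 of 4 endothelial markers tested also fell, with medians of -0.84 and -0.61. The macrophage score (mean log2 intensity of the 9 markers) was 9.20 to 9.74 in HTS-3 mice, against 9.79 to 11.01 in vehicle mice, and Marco was under 32 in both groups. The neutrophil score was 3.72 to 4.18 in HTS-3 mice, against 8.26 in vehicle mouse 1 and 3.88 and 4.26 in the other 2 vehicle mice; vehicle mouse 1 also had the highest macrophage score. Of 2 neutrophil markers tested, 1 fell, with a median of -2.73. The part of these cells was not tested.

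The values of single genes show the same mouse. Rps3, a small subunit protein at the mRNA entry that also acts in DNA repair, read 38819, 39819, 37754 and 23575 in HTS-3 mice at 16 h, against 41775, 34221 and 39507 in vehicle mice. The first 3 HTS-3 mice lay within the vehicle range and mouse 4 below it (log2 change -0.16 ± 0.17 SE; limma adjusted p = 0.556). Rplp0, which anchors the P-stalk that recruits elongation factors, read 72803, 69975, 69926 and 56382 in HTS-3 mice, against 72243, 64925 and 71668 in vehicle mice, with mouse 4 alone below the vehicle range. The smallest adjusted p of any member here was that of Rpl27a, a large subunit protein read by a dim probe set. It read 732, 711, 586 and 772 in HTS-3 mice, against 1124, 856 and 1237 in vehicle mice, so all 4 lay below all 3 (-0.61 ± 0.27 SE; limma adjusted p = 0.126).

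The 2 members past an unadjusted p under 0.05 for TS-2 at 72 h were Rps6 and Rpl14. Rps6, the small subunit protein phosphorylated by S6 kinases, read 1767, 1005, 1081 and 538 in TS-2 mice at 72 h, against 547, 692 and 470 in vehicle mice, so 3 of the 4 TS-2 mice lay above the vehicle range (0.84 ± 0.37 SE; limma adjusted p = 1). Rpl14, a large subunit protein, read 802, 237, 408 and 211 in TS-2 mice at 72 h, against 206, 121 and 174, and all 4 lay above all 3 (1.13 ± 0.40 SE; limma adjusted p = 0.751). Neither passed, and no other member moved by as much in that comparison. Rps4l, a paralog of the X-linked Rps4x, had the lowest value of the members for NTS-1 at 8 h (-0.41 ± 0.68 SE), 16 h (-0.35 ± 0.63) and 72 h (-0.27 ± 0.68), each smaller than its error.

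Between gapmers at the same time after 1 dose, 0 of 42 members passed in any of 7 limma comparisons. Of all genes, 0.865% passed for TS-2 against NTS-1 at 8 h, 0.493% at 16 h and 0.263% at 72 h. The shares were 1.16% for HTS-3 against NTS-1 at 8 h and 21.4% at 16 h, and 0.526% for HTS-3 against TS-2 at 8 h and 13% at 16 h. The members' medians ran from -0.12 (HTS-3 against NTS-1, 16 h) to 0.04 (TS-2 against NTS-1, 8 h), and at most 2 members passed an unadjusted p under 0.05. With the Actb ratio as a covariate, 11 members were lower after HTS-3 than after NTS-1 at 16 h and 2 lower than after TS-2. The share of all genes lower in that fit was not computed, so these counts have no background beside them. Vehicle mice did not differ with time in any member: 0 of 42 passed at 16 h against 8 h (2.11% of all genes) or at 72 h against 8 h (1.93%), with 0 at an unadjusted p under 0.05. The change of an effect between times was past the test in 0 members for HTS-3 from 8 to 16 h (3.23% of all genes), TS-2 from 8 to 72 h (0.0766%) and NTS-1 from 8 to 16 h (0.0766%), with 0, 1 and 0 members at an unadjusted p under 0.05.

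**Figure D2:**
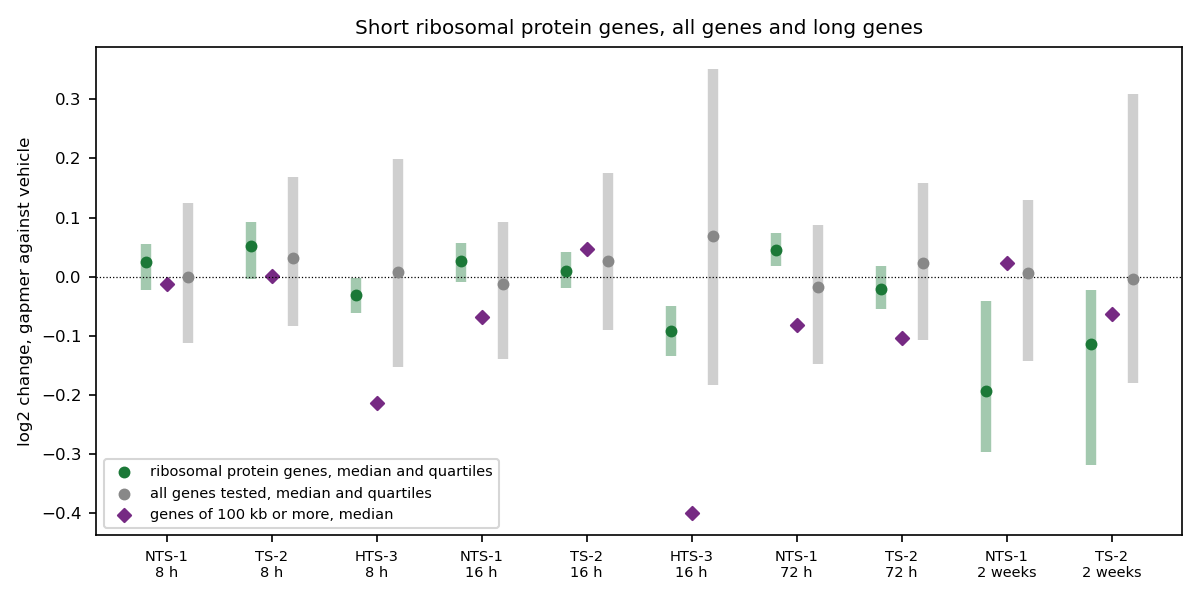
log2 change against vehicle of the same time (vertical axis) in 10 comparisons, ordered by time; points and bars give the median and quartiles of the ribosomal protein genes and of all genes tested, and diamonds the median of genes of 100 kb or more. After HTS-3 at 16 h the long genes lie at -0.40 and the ribosomal protein genes at -0.09, while at 2 weeks the ribosomal protein genes lie lowest, at -0.19 after NTS-1 and -0.11 after TS-2.

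After 2 weeks of dosing, a group of ribosomal protein genes was lower with both gapmers against all 10 vehicle mice. After NTS-1, 9 of 43 members fell (20.9%) and 0 rose, where 3.33% of all genes fell and 2.1% rose. After TS-2, 16 of 43 members fell (37.2%) and 2 rose (4.65%), where 15.1% of all genes fell and 23.8% rose. The falls were small: the called members lay between -0.27 and -0.47 after NTS-1 and between -0.21 and -0.59 after TS-2. The median over all members tested was -0.19 after NTS-1, with 33 of 43 below 0, and -0.11 after TS-2, with 34 below 0, against 0.01 and 0.00 over all genes. In whole liver, fewer cells of a type and less RNA per cell cannot be told apart.

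The 7 shared falls were Rpl11, Rpl19, Rpl41, Rps3, Rps15, Rps18 and Rps24, which make up 77.8% of the 9 called after NTS-1 and 43.75% of the 16 called after TS-2. Both comparisons use the same 10 vehicle mice. Of all 13812 genes tested, 294 were lower after both, which is 63.9% of those lower after NTS-1 and 14.1% of those lower after TS-2. In the order of the deposited samples, vehicle mice 1 to 5 come before the NTS-1 mice and 6 to 10 before the TS-2 mice. The sample titles do not say whether each gapmer had its own controls. With vehicle mice 1 to 5 for NTS-1 and 6 to 10 for TS-2, 0 members were lower in both, and 0 of all genes were lower after NTS-1 at all. With these controls exchanged, 4 members (9.30%) and 1.19% of all genes were lower in both. In both arrangements 29 of 43 members (67.4%) lay below 0 in both comparisons, against 30.7% and 25.9% of all genes.

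Rps3 was the member with the lowest adjusted p after TS-2. It read 9184, 7436, 9922, 8759 and 9455 in TS-2 mice and 11222, 9262, 10286 and 11003 in NTS-1 mice, against 11646 to 14792 in vehicle mice (median 13500). All mice of both gapmers lay below all 10 vehicle mice. The log2 change was -0.59 ± 0.08 SE after TS-2 (limma adjusted p = 1.17e-05) and -0.36 ± 0.08 SE after NTS-1 (limma adjusted p = 0.0201). With the mean of its 3 probe sets in place of the brightest, it was -0.19 after TS-2 and -0.13 after NTS-1 and passed in neither.

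Rps15 and Rps24 are small subunit proteins, and Rps24 is mutated in some patients with Diamond-Blackfan anaemia, a human ribosome disorder. Rps15 read 6011, 5152, 6241, 6574 and 6138 in TS-2 mice and 7738, 6163, 6713 and 7111 in NTS-1 mice, against 7891 to 10274 in vehicle mice (median 8872). Rps24 read 9638, 9197, 9860, 10033 and 9511 in TS-2 mice and 12465, 10010, 10158 and 9964 in NTS-1 mice, against 11766 to 15083 in vehicle mice (median 14181). Every gapmer mouse lay below every vehicle mouse for both genes, except NTS-1 mouse 1 for Rps24. Rps15 changed by -0.57 ± 0.08 SE after TS-2 (limma adjusted p = 1.48e-05) and by -0.36 ± 0.08 SE after NTS-1 (0.0192). Rps24 changed by -0.52 ± 0.07 SE after TS-2 (limma adjusted p = 1.61e-05) and by -0.38 ± 0.08 SE after NTS-1 (0.0101).

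Rpl11, the large subunit protein that carries 5S RNA into the ribosome and binds Mdm2 when ribosome assembly fails, read 8042, 6865, 6800, 7949 and 7306 in TS-2 mice. It read 8312, 6759, 6794 and 8005 in NTS-1 mice, against 8653 to 11992 in vehicle mice (median 10315), and again no gapmer mouse reached the vehicle range. The change was -0.48 ± 0.08 SE after TS-2 (limma adjusted p = 0.000117) and -0.47 ± 0.09 SE after NTS-1 (limma adjusted p = 0.00774). Rps18, in the head of the small subunit, read 11329, 10730, 10425, 13387 and 12722 in TS-2 mice and 12720, 10092, 10692 and 12983 in NTS-1 mice, against 13674 to 17818 in vehicle mice (median 15865). It lay apart from vehicle in all 9 mice as well, with changes of -0.43 ± 0.09 SE after TS-2 and -0.45 ± 0.09 SE after NTS-1. With the mean of its 6 probe sets these were -0.24 and -0.25, and the second did not pass (limma adjusted p = 0.0727).

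Rpl19 was the member with the lowest adjusted p after NTS-1. It read 9323, 9744, 9385, 10777 and 10380 in TS-2 mice and 9359, 8159, 8704 and 9197 in NTS-1 mice, against 10605 to 13253 in vehicle mice (median 12161). The 4 NTS-1 mice lay below all vehicle mice and 1 TS-2 mouse entered their range. The change was -0.27 ± 0.06 SE after TS-2 (limma adjusted p = 0.00239) and -0.43 ± 0.07 SE after NTS-1 (limma adjusted p = 0.00552). Rpl41, one of the shortest proteins known, changed by -0.31 ± 0.09 SE and -0.37 ± 0.09 SE, with both groups overlapping vehicle. With the mean of its probe sets Rpl41 did not pass after NTS-1 (-0.25; limma adjusted p = 0.0657). A further 2 members fell after NTS-1, Rps19 (-0.41 ± 0.11 SE; limma adjusted p = 0.0342) and Rpl27 (-0.27 ± 0.07 SE; limma adjusted p = 0.0388), which did not pass with the mean of its probe sets. Neither passed after TS-2, at -0.20 and -0.05, and the difference of TS-2 from NTS-1 did not pass for Rps19 (0.21 ± 0.12 SE; limma adjusted p = 0.215) or for Rpl27 (0.23 ± 0.08 SE; limma adjusted p = 0.0595).

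**Figure D3:**
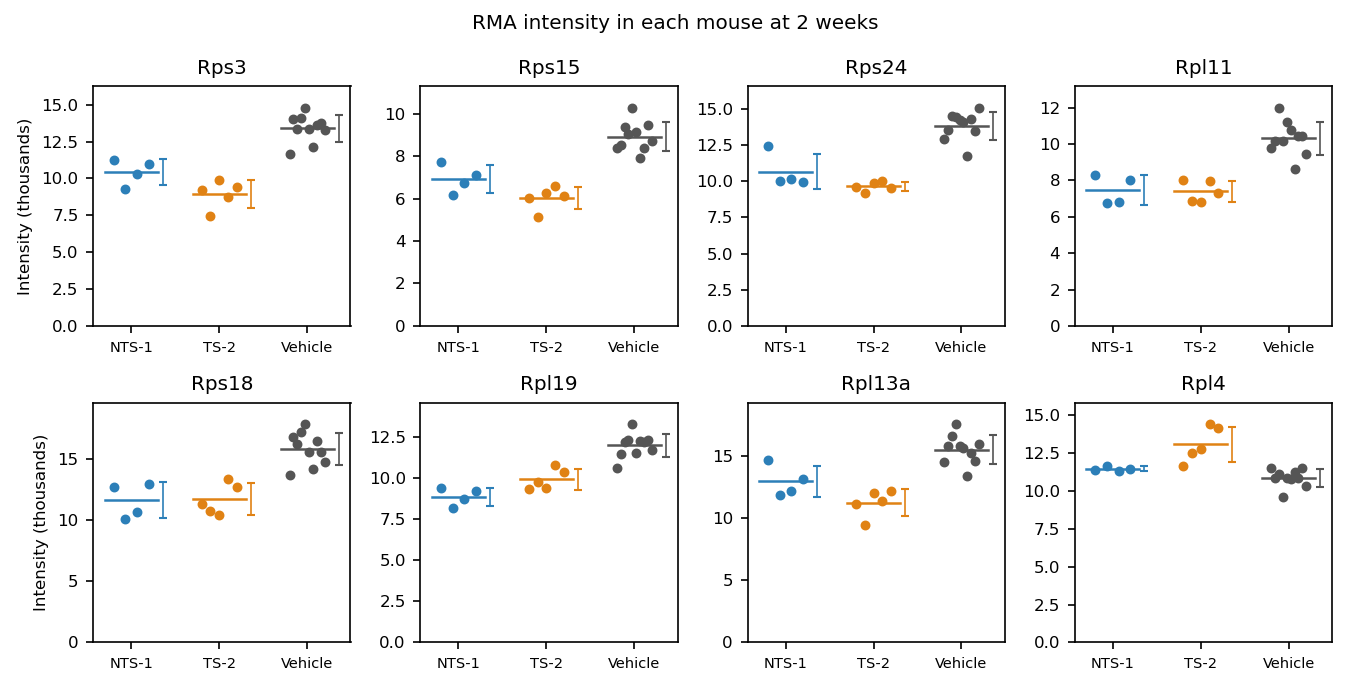
RMA intensity (vertical axis, in units of 1000, from 0) of 8 ribosomal protein genes in each mouse at 2 weeks; lines are group means and error bars the SD (n = 4 NTS-1, 5 TS-2, 10 vehicle). All NTS-1 and TS-2 mice lie below every vehicle mouse for Rps3, Rps15, Rpl11 and Rps18, and all TS-2 mice lie above every vehicle mouse for Rpl4.

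The other falls after TS-2 covered both subunits. Rpl13a, which in human cells also leaves the ribosome to silence inflammatory mRNAs, read 11145, 9472, 12026, 11388 and 12164 in TS-2 mice, against 13420 to 17544 in vehicle mice (median 15699). No TS-2 mouse reached the vehicle range (-0.47 ± 0.08 SE; limma adjusted p = 0.000103). Rps14, lost in the human 5q- syndrome, changed by -0.40 ± 0.07 SE and Rpl22, a large subunit protein that binds several cellular RNAs, by -0.32 ± 0.07 SE, both also apart from vehicle. With the mean of the probe sets Rpl22 was at -0.04 and did not pass. Rplp0 (-0.21 ± 0.07 SE), Rps10 (-0.25 ± 0.07 SE), Rps7 (-0.28 ± 0.10 SE) and Rpl35 (-0.35 ± 0.13 SE) passed with groups that overlapped. Rps27 (-0.31 ± 0.08 SE) and Rpl39 (-0.28 ± 0.08 SE) also passed, on dim probe sets.

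By role, 7 of 20 large subunit members fell and 1 rose after TS-2, 8 of 19 small subunit members fell and 1 rose, and 1 of 2 P-stalk members fell. After NTS-1, 4 of 20 large and 5 of 19 small subunit members fell and 0 of 2 P-stalk members passed. Neither of the 2 paralogs tested passed in either comparison. Rplp2, the other P-stalk member, lay at 0.07 ± 0.07 SE after TS-2 and -0.07 ± 0.08 SE after NTS-1. Rpsa, the small subunit protein also known as the laminin receptor, lay at -0.12 ± 0.10 SE and 0.07 ± 0.11 SE. The TS-2 groups of 8 falling members and 1 rising member did not overlap with vehicle, where 3.74% and 8.16% of all genes were apart in those directions. For NTS-1, 7 members were lower without overlap, against 1.59% of all genes.

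The members that rose after TS-2 were Rpl4 and Rps6. Rpl4, which lines the exit tunnel of the large subunit, read 11608, 12493, 12726, 14383 and 14129 in TS-2 mice and 11402, 11658, 11277 and 11463 in NTS-1 mice, against 9598 to 11510 in vehicle mice (median 10855). All 5 TS-2 mice lay above all vehicle mice, by 0.27 ± 0.06 SE (limma adjusted p = 0.00271), and NTS-1 lay at 0.08 ± 0.07 SE. Rps6 read 490, 492, 715, 814 and 744 in TS-2 mice and 412, 257, 383 and 339 in NTS-1 mice, against 206 to 588 in vehicle mice (median 434). Of the 5 TS-2 mice, 3 lay above the vehicle range, and the change was 0.84 ± 0.23 SE (limma adjusted p = 0.00611). Its probe set is dim; with the mean of its probe sets the change was 0.47 and still passed.

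**Figure D4:**
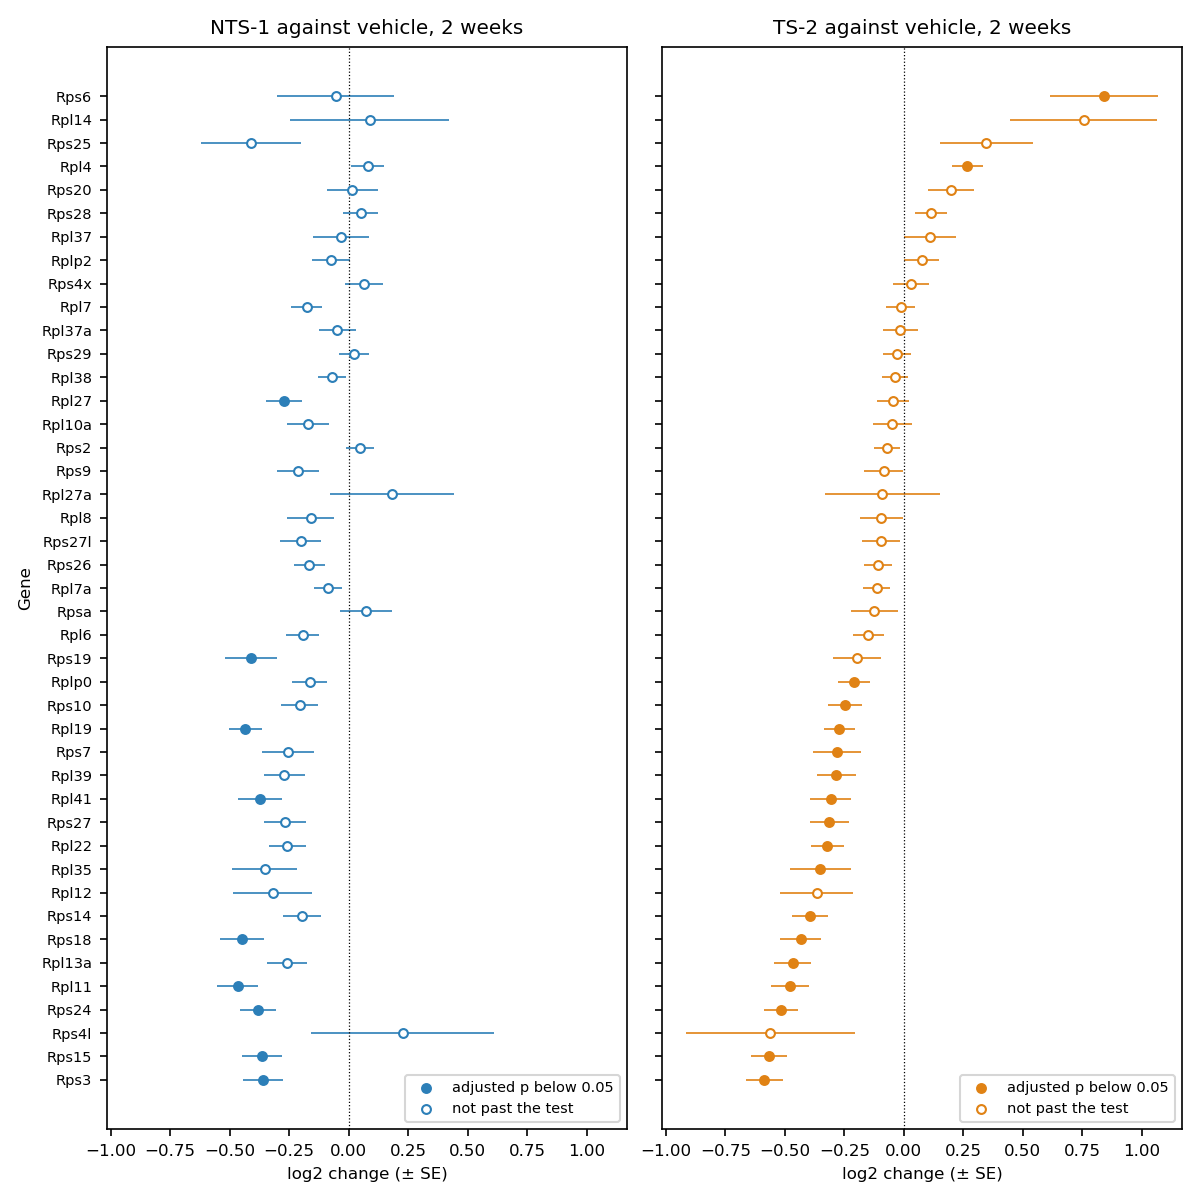
log2 change against vehicle at 2 weeks with its standard error (horizontal axis) for the 43 ribosomal protein genes tested, NTS-1 at the left and TS-2 at the right, genes ordered by the TS-2 change; filled points passed the test. After NTS-1, 9 genes are filled, all below 0, and after TS-2, 16 are filled below 0 and Rpl4 and Rps6 above it.

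The mice of a group were not alike. The median deviation of the members from the vehicle mean was -0.19, -0.27, -0.20, 0.00 and -0.01 in the 5 TS-2 mice and -0.05, -0.31, -0.22 and -0.12 in the 4 NTS-1 mice, against -0.17 to 0.07 in vehicle mice. In TS-2 mice 4 and 5 the median member was at the vehicle level, while Rps3, Rps15, Rps24 and Rpl11 were low in them too. Among vehicle mice, mouse 7 was lowest. The macrophage list score (mean log2 intensity of 9 markers) ranged from 7.66 to 10.04 in TS-2 mice and from 7.35 to 8.63 in NTS-1 mice, against 7.26 to 9.04 in vehicle mice, and none of its markers was under 32 on all arrays of a group at 2 weeks. Of its 9 genes, 2 rose after TS-2 and 0 passed after NTS-1. Of 5 endothelial markers, 3 fell after TS-2 and 1 after NTS-1, with medians of -0.72 and -0.50. Their score was 6.80 to 8.14 in TS-2 mice and 7.25 to 7.63 in NTS-1 mice, against 7.47 to 8.65 in vehicle mice, with Pecam1 under 32 in all NTS-1 mice. Of 3 cycling-cell genes tested, 2 rose after TS-2. Of 7 hepatocyte markers tested, 2 rose and 1 fell after TS-2, and 1 rose after NTS-1. Of all genes, 23.8% rose and 15.1% fell after TS-2, and 2.1% rose and 3.33% fell after NTS-1. The macrophage count of 2 of 9 after TS-2 is therefore close to the share of all genes that rose. The part of these cell types in the result was not tested.

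The count for NTS-1 rested on few mice and on the choice of controls. It was 3 without NTS-1 mouse 2 and 3 without mouse 3, and 3 to 13 over all mice left out. It was 0 with vehicle mice 1 to 5 as the only controls, where 0 of all genes were lower, and 4 with vehicle mice 6 to 10. It was 16 with the Actb ratio as a covariate, a fit for which no share of all genes was computed. The TS-2 count of falls ran from 13 to 17 with any 1 mouse left out, was 15 with vehicle mice 1 to 5 and 10 with 6 to 10. Centring the arrays on the median of the other genes moved the median of all genes by -0.12 for TS-2 and gave 22 falls and 1 rise, Rps6, since Rpl4 then no longer passed. That shift lowers all genes alike, and the share of all genes lower in this fit was not computed. The larger count is therefore no result about the members.

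Other probe sets of the same genes could be compared. Fitted one by one, 21 of 86 member probe sets were lower after NTS-1 (2.65% of all probe sets) and 35 were lower and 3 higher after TS-2 (13.9% of all were lower). Of 17 genes with several bright probe sets, 15 had all of them on one side of 0 in each of the 2 comparisons. A further 110 probe sets carry a ribosomal protein symbol among several and were left unnamed. Of the 104 tested, 16 were lower and 0 higher after NTS-1, and 36 were lower and 2 higher after TS-2. Since each carries several symbols, it cannot be assigned to 1 gene. Of the 43 members, 17 are read by a probe set whose name marks probes that can match related transcripts, so their signal may not belong to 1 gene alone. They include 8 of the 16 that fell after TS-2 (Rpl13a, Rpl22, Rpl35, Rpl41, Rps7, Rps10, Rps14 and Rps24) and 2 of the 9 that fell after NTS-1 (Rpl41 and Rps24). Rps27l, the paralog of Rps27, is another; it lay at -0.10 ± 0.08 SE after TS-2 and -0.20 ± 0.09 SE after NTS-1.

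TS-2 and NTS-1 were compared directly at 2 weeks. Of the 43 members, 2 were higher after TS-2 and 0 lower, where 14.8% of all genes were higher and 7.13% lower; at an unadjusted p under 0.05 limma gave 9 members. Rps6 was higher by 0.90 ± 0.28 SE (limma adjusted p = 0.0274), with all 5 TS-2 mice above all 4 NTS-1 mice; with the mean of its probe sets it was 0.43 and did not pass. Rps25, on a dim probe set, read 102, 149, 102, 234 and 261 in TS-2 mice, against 88.1, 71.7, 104 and 112 in NTS-1 mice, with 3 of 5 above the NTS-1 range (0.76 ± 0.24 SE; limma adjusted p = 0.0283). For the shared falls the difference was not past the test. It was -0.23 for Rps3 (95% interval -0.42 to -0.03; limma adjusted p = 0.0922), -0.01 for Rpl11 (-0.22 to 0.19) and 0.16 for Rpl19 (-0.00 to 0.33). With the arrays centred on the other genes, 1 member was higher and 3 were lower. The share of all genes in that fit was not computed.

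Lists of other genes that make, read or control ribosomes were described beside them. At 2 weeks 23.8% of all genes rose and 15.1% fell after TS-2, and 2.1% rose and 3.33% fell after NTS-1. Ribosome biogenesis genes make ribosomal RNA and assemble subunits. Of 38, 0 passed after NTS-1 at 2 weeks, with a median of 0.09. After TS-2, 24 of the 38 rose and 2 fell, with a median of 0.41. Those with the lowest adjusted p were Rrp12 (0.99 ± 0.13 SE), a ribosome export factor, Nop2 (1.11 ± 0.15 SE), a ribosomal RNA methyltransferase, and Nop14 (0.95 ± 0.13 SE), a small subunit assembly factor. After HTS-3 at 16 h, where 8.05% of all genes rose and 8.81% fell, 8 of the 38 rose and 1 fell, with a median of 0.46, among them Nop56 (1.22 ± 0.26 SE), Wdr12 (0.78 ± 0.17 SE) and Nop2 (1.19 ± 0.30 SE). In the other 7 comparisons of a gapmer with vehicle, 0 of the 38 passed.

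Translation genes whose mRNAs share the TOP start moved in both directions at 2 weeks. Of 16, 3 fell and 1 rose after NTS-1: Naca, a subunit of the nascent chain complex (-0.43 ± 0.07 SE), Fau, which carries a ribosomal protein as a fusion (-0.43 ± 0.09 SE), and Eif3h (-0.41 ± 0.10 SE) were lower, and Eif3f (0.45 ± 0.11 SE) was higher. After TS-2, 4 fell and 6 rose, with Eef2, the translocation factor (0.80 ± 0.12 SE), Pabpc1, the poly(A)-binding protein (0.88 ± 0.17 SE), and the histone chaperone Nap1l1 (0.87 ± 0.19 SE) higher. Beside these counts, 23.8% of all genes rose and 15.1% fell after TS-2, and 2.1% rose and 3.33% fell after NTS-1. None of the 16 passed against vehicle after 1 dose in the limma fit.

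Among 12 genes that control ribosomal protein mRNAs, Larp1, which binds their TOP starts, rose with both gapmers at 2 weeks, by 0.92 ± 0.16 SE after TS-2 (limma adjusted p = 0.000178) and 0.62 ± 0.17 SE after NTS-1 (limma adjusted p = 0.0424). In all, 5 of the 12 rose and 1 fell after TS-2, where 23.8% and 15.1% of all genes did, and 1 rose and 0 fell after NTS-1. After TS-2 Eif4ebp2 (0.53 ± 0.11 SE), Tsc2 (0.39 ± 0.11 SE), Mtor (0.34 ± 0.11 SE) and Max (0.32 ± 0.12 SE) were the others that rose, and Eif4e, the cap-binding protein, fell (-0.63 ± 0.16 SE). Rptor, the scaffold of mTOR complex 1, changed by -1.57 ± 0.36 SE at 8 h after HTS-3 (limma adjusted p = 0.0246) and by -3.17 ± 0.33 SE at 16 h (limma adjusted p = 4.05e-08). Rps6kb2, an S6 kinase gene, rose at 16 h (0.44 ± 0.13 SE).

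Mitochondrial ribosomal proteins serve the separate ribosomes of mitochondria. After TS-2 at 2 weeks, 32 of 76 fell and 9 rose, with a median of -0.19, led by Mrps35 (-1.08 ± 0.10 SE), Mrpl46 (-0.82 ± 0.10 SE) and Mrpl50 (-0.89 ± 0.11 SE). After NTS-1, 6 fell and 1 rose, with a median of -0.15, led by Mrps23 (-0.55 ± 0.11 SE). After HTS-3 at 16 h, 6 of 76 rose and 3 fell, shares no higher than the 8.05% and 8.81% of all genes, with Mrpl47 higher (0.62 ± 0.11 SE) and Mrpl3 lower (-1.29 ± 0.27 SE). At 2 weeks these counts stand beside 23.8% of all genes higher and 15.1% lower after TS-2, and 2.1% and 3.33% after NTS-1. Nothing was tested for a list as a whole.

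**Figure D5:**
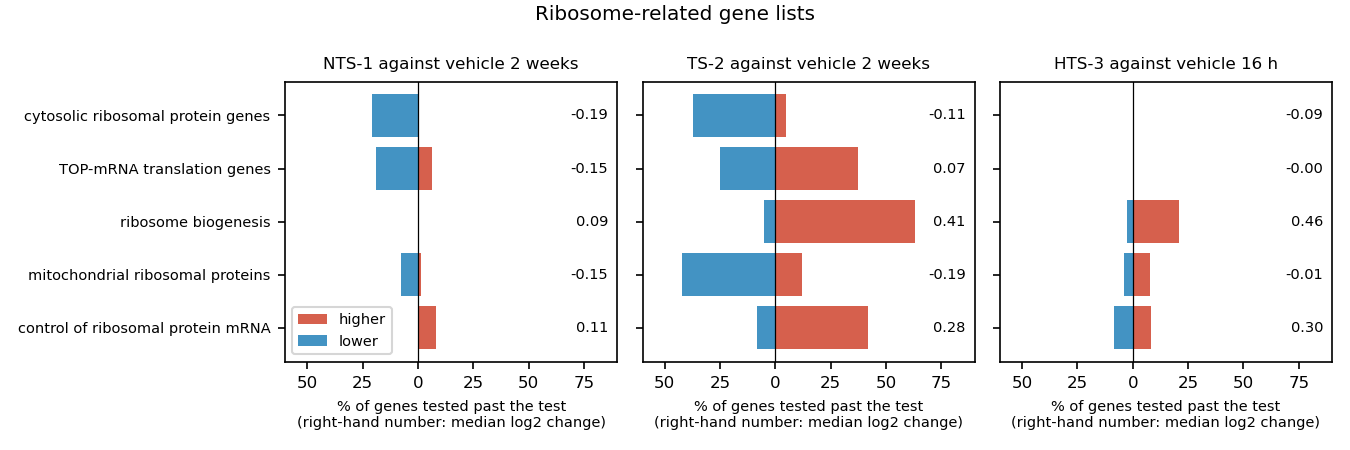
Percent of the tested genes of 5 lists that were higher (right of 0) or lower (left of 0) than vehicle in 3 comparisons, with each list's median log2 change at the right edge of its panel. After TS-2 at 2 weeks, 16 of 43 cytosolic and 32 of 76 mitochondrial ribosomal protein genes are lower while 24 of 38 biogenesis genes are higher. Of all genes tested, 15.1% are lower and 23.8% higher in that comparison.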

How the data were processed

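RNA of 56 livers was hybridised to mouse expression arrays, and the authors deposited one intensity per probe set and array, on a linear scale. Per the submitters' processing notes the intensities came from RMA, of unstated version. The single-dose set (lowest value 4.56) and the 2-week set differ in range and were fitted apart, with no level set across them. The intensities were changed to log2 here. Probe sets were named from the platform annotation: 34958 carry 1 gene, 932 several and 9211 none. Each gene was read from its probe set with the highest mean and tested at an intensity of 32 or more on 3 or more arrays. limma 3.58.1 in R 4.3.3 fitted 11 single-dose groups in one model and 3 groups at 2 weeks in another, with Benjamini-Hochberg adjustment over all genes tested. The fit was tested on simulated data. The number of arrays limits the precision, and no 2 arrays were identical.

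Gene names in the text are members past the test (up to 10 per direction and comparison), the 2 highest and 2 lowest changes of a comparison, members with known roles and, of each related list, up to 3 past the test. Rpl35, Rpl39, Rps7, Rps10, Eif3f, Tsc2, Mtor and Max fall outside these limits and were named after their values were seen. The members and lists were chosen with earlier results of these data known. Of the list symbols, 16 of 20 TOP genes, 38 of 39 biogenesis genes and 12 of 13 control genes had a probe set of their own. The alternatives tried were averaging the probe sets of a gene, dropping the filter, quantile normalization, centring on other genes, array weights, a level-dependent prior variance, the compared groups alone, the replicate number as a block, the Actb ratio, 5 of the 10 2-week vehicle mice, the HTS-3 mouse of uncertain time moved, all probe sets singly, and each mouse left out. The replicate numbers did not pair the mice: in 0 of 18 comparisons did every same-numbered pair correlate above 0.1.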

Additional observations from a re-analysis of the deposited data

Results flagged for a closer look

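Sample values far from the rest of their group were looked for in 70 sets of values, each from 1 group of 4 to 10 mice. Among them 4 were found. Chance gives about 1 in 20 for a single set, but these sets share mice and are not independent. The median deviation of the ribosomal protein genes in HTS-3 16 h mouse 4 was -0.40, against -0.01 to 0.04 in the other 3 mice. Rps24 read 12465 in NTS-1 2-week mouse 1, against 9964 to 10158 in the other 3. Rps25 read 88.6 in 2-week vehicle mouse 7, against 114 to 150 in the other 9. Rps27 read 172 in 2-week vehicle mouse 4, against 148 to 160 in the other 9.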

How the results depend on the processing

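Falls after NTS-1 at 2 weeks numbered 9. They were 5 with probe sets averaged, 16 with array weights, 16 with the Actb ratio as a covariate, 0 with the replicate block, 0 and 4 with vehicle mice 1 to 5 and 6 to 10 only, and 21 with all probe sets fitted singly. Falls after TS-2 numbered 16. They were 10 with the replicate block, 10 with vehicle mice 6 to 10 only and 35 with all probe sets singly; rises numbered 2, and 1 with centring on the other genes. TS-2 against NTS-1 gave 2 rises, which became 1 with the mean of probe sets, quantile normalization, centring, array weights or the compared groups alone, 4 with a level-dependent prior variance and 0 with the replicate block. It gave 0 falls, which became 3 with centring and 1 with array weights. Array weights gave 1 fall for HTS-3 against vehicle at 16 h. The Actb ratio gave 11 falls for HTS-3 against NTS-1 and 2 for HTS-3 against TS-2 at 16 h, where there were 0. For the fits with the Actb ratio, array weights or centring, no share of all genes was computed. Centring moved the members' median to -0.23 for TS-2 against vehicle and -0.11 for TS-2 against NTS-1 at 2 weeks, and to -0.10 for TS-2 against NTS-1 at 16 h. With 1 mouse left out, falls ran from 3 to 13 after NTS-1 and from 13 to 17 after TS-2, rises from 2 to 4 after TS-2, and rises for TS-2 against NTS-1 from 0 to 4. No named change reversed its sign. Of the alternative values, 1549 were classed as the same, 107 of named changes no longer passed and 36 counts or medians moved. A named change was the same if it kept its direction and passed. A count was the same within a set ratio of the main count. A median was the same if it shifted by less than the within-group SD of the mice, even across 0. The replicate block uses fewer vehicle mice at 2 weeks, since numbers 6 to 10 stand alone for TS-2 and 5 to 10 for NTS-1. The cause of the other moves was not tested.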
